A study of Arabidopsis thaliana with 6 samples.

Results

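*NINJA*, *MYC3* and *MYC4* encode a co-repressor adaptor of jasmonate (JA) signalling and 2 of the transcription factors it restrains, and their transcripts were followed here in whole *Arabidopsis thaliana* roots. The 3 members are the Affymetrix ATH1 probe sets 253752_at (*NINJA*, AT4G28910), 248864_at (*MYC3*, AT5G46760) and 254693_at (*MYC4*, AT4G17880), out of 22746 tested. The *MYC* rows were chosen by gene name, and the *NINJA* row by its change, as described with its values. The roots came from the mutant *ninja-1* and from Col-0 (WT) as control. Both genotypes are in the Col-0 background and carry the *JAZ10pro-GUSPlus* (*JGP*) reporter, so a line without that transgene is not among the samples. Seedlings were 5 days old, grown under basal aseptic conditions with no treatment, and each of 3 biological replicates per genotype held RNA pooled from 120 roots and was read on its own array. The *ninja-1* allele was followed in the study by the loss of an *AciI* cutting site in an amplified stretch of the gene, and which base changed is not given in the sources used here. It is a single mutant allele, and a second allele was not analysed here.

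In the absence of JA, JAZ proteins bind the MYC transcription factors and hold them inactive. NINJA is the adaptor of this arrangement: it binds JAZ proteins on one side and, through an EAR motif, co-repressors of the TOPLESS family on the other. When the active hormone JA-Ile appears, the F-box receptor COI1 marks JAZ proteins for degradation, and MYC2, MYC3 and MYC4, closely related bHLH proteins with overlapping roles, can activate their target genes. NINJA acts on the MYC proteins through protein contacts, so the array question is a separate one: how much transcript of the repressor is left in its own mutant, and whether the transcripts of the factors it restrains differ between the genotypes.

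All values are on the log2 scale made by GCRMA, a background correction and normalization for Affymetrix arrays, so that a difference of 1 is a 2-fold difference. Array medians lay between 5.95 and 6.03 and the lowest value was 2.11, called the floor here. Of 4846 probe sets with the same value on all 6 arrays, 13 had a mean of at least 4, the highest at 6.85, so distance from the floor alone does not show that a probe set measures transcript. Pearson's r across probe sets was 0.998 to 0.999 between arrays of the same genotype and 0.994 to 0.996 across them. With 3 arrays per genotype, precision is limited by their number. A probe set was called when its Benjamini-Hochberg adjusted p in limma was under 0.05 and its change at least 2-fold. By this rule 1 of the 3 members was called lower in *ninja-1*, as were 0.0484% of all probe sets, and 0 of the 3 were called higher, as were 0.492% of all probe sets. The call of the *NINJA* row comes from the contrast through which it was chosen, and nothing is read from it.

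The name of the *NINJA* row rests on less than those of the *MYC* rows. The array annotation used here gives *MYC3* and *MYC4* as the only gene of their probe sets, and each of them has 1 probe set, but it lists no gene for 253752_at. The row had been tied to *NINJA* through the closeness of its fold change and adjusted p to those tabulated by the study. Its fall was therefore known when it was chosen, its values are given as a description with no test, and they support nothing about the label of the mutant samples. Of 11 probe sets called lower, 6 carry no gene name in this annotation (54.5%, against 38.4% of all probe sets) and 1 carries several, and 4 of the 6 that fell at least 4-fold carry none. Within 5 numbers of 253752_at on the array, 5 probe sets are annotated, and all belong to genes that lie 6 to 17 coding genes from *NINJA* in the gene order of TAIR10.1. These numbers do not by themselves name the row.

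*NINJA* measured 7.30, 7.05 and 7.13 in *ninja-1* replicates 1 to 3, against 9.60, 9.52 and 9.72 in WT replicates 1 to 3. The genotypes did not overlap, and a gap of 2.22 separated the highest *ninja-1* array from the lowest WT array, while the arrays of a genotype spanned 0.24 in *ninja-1* and 0.20 in WT. Groups did not overlap, with *ninja-1* lower, in 10.1% of all probe sets, and the gap here was 9.15 times the wider of these spans. The log2 change of *NINJA* was -2.45 (standard error 0.09). On the linear scale the *ninja-1* signal was 18.3% of the WT signal, or 5.46-fold lower.

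The mean signal in *ninja-1* lay 5.05 log2 units above the floor, and how much of it is background of this probe set was not measured. Where in the gene the probes of this set lie relative to the *ninja-1* mutation is not known from the sources used here, so the remaining signal cannot be assigned to a full-length or an altered transcript.

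**Figure D1:**
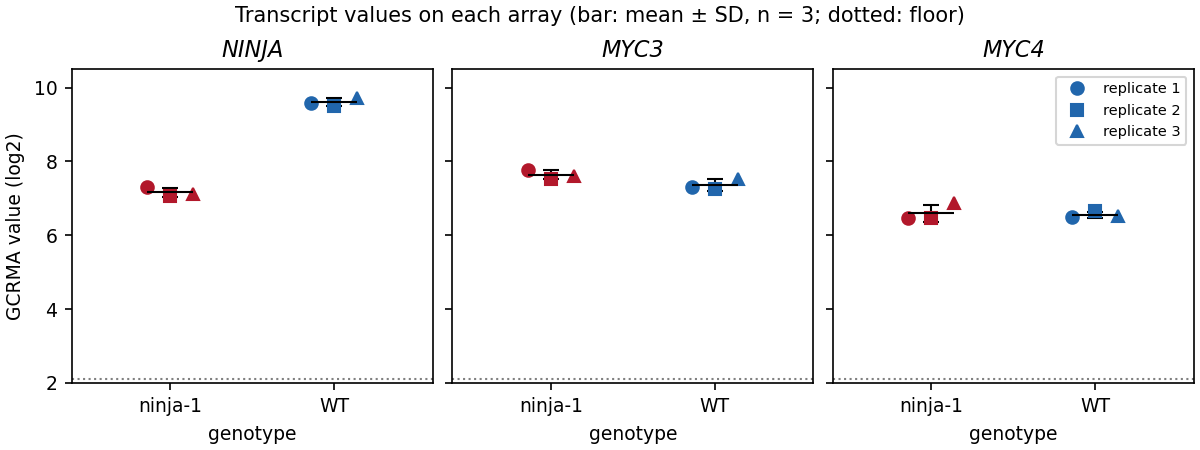
GCRMA values (log2, vertical axis) of *NINJA*, *MYC3* and *MYC4* on each of the 3 *ninja-1* arrays (red) and the 3 WT arrays (blue), with symbols for the replicate number, bars for mean ± SD and a dotted line for the floor at 2.11. *NINJA* lies between 7.05 and 7.30 in *ninja-1* and between 9.52 and 9.72 in WT, while the genotypes overlap for *MYC3* and *MYC4*. Heights are not comparable between genes, since each probe set has its own response.

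*MYC3*, which with MYC2 and MYC4 activates JA-responsive genes in roots and shoots, measured 7.77, 7.53 and 7.61 in *ninja-1* replicates 1 to 3, against 7.30, 7.25 and 7.54 in WT replicates 1 to 3. The genotypes touched: the lowest *ninja-1* array, replicate 2, lay 0.01 below the highest WT array, replicate 3. The log2 difference in limma was 0.27 (standard error 0.11, unadjusted p = 0.0604, adjusted p = 0.421), which is 1.21-fold with a 95% interval from 0.987-fold to 1.47-fold. The difference did not pass the test, and the interval holds no change as well as a 1.47-fold higher level, but leaves out a 2-fold one. Over the 14212 probe sets with a mean value of at least 4, 18.3% had a larger change in either direction, so a difference of this size was common on these arrays.

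*MYC4* measured 6.46, 6.46 and 6.86 in *ninja-1* replicates 1 to 3, against 6.49, 6.65 and 6.52 in WT replicates 1 to 3. The genotypes overlapped fully, with *ninja-1* replicates 1 and 2 below every WT array and *ninja-1* replicate 3 above all of them. In limma the log2 difference was 0.04 (standard error 0.14, adjusted p = 1), which corresponds to 1.03-fold with a 95% interval from 0.801-fold to 1.33-fold. This direction rested on 1 array: without *ninja-1* replicate 3 the difference was -0.09 (adjusted p = 0.645). *MYC4* varied more among *ninja-1* roots (SD 0.23) than among WT roots (SD 0.09), with n = 3 each, and the difference between these spreads was not tested. A larger change in either direction was seen in 77.1% of the 14212 probe sets.

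RNA of whole roots averages over all cell types, and fewer cells of a type and less RNA per cell cannot be told apart in these values. The levels of *MYC3* and *MYC4* in single cell layers were not measured on these arrays. With reporters, the study found MYC3 and MYC4 in separate cells of the root tip. *MYC2*, the third member of the trio, was not analysed here.

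**Figure D2:**
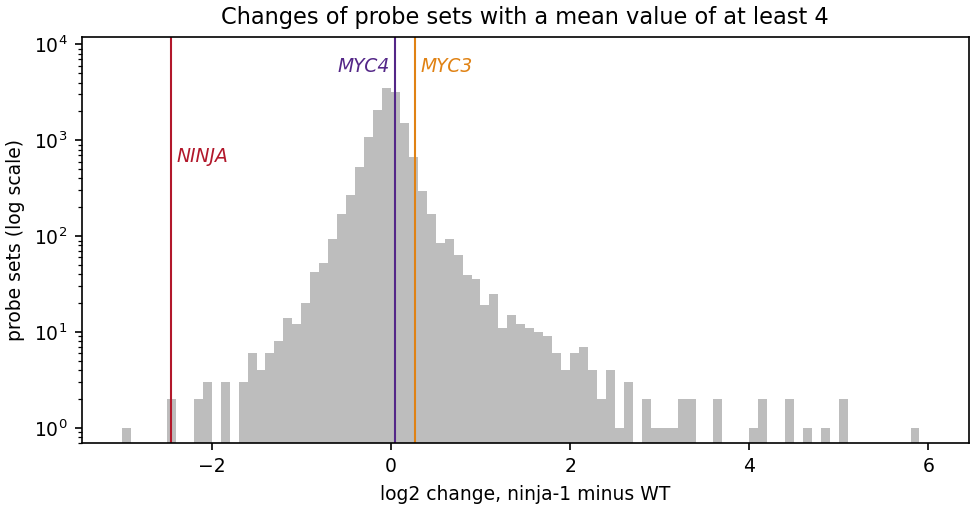
Number of probe sets (vertical axis, log scale) by log2 change, *ninja-1* minus WT (horizontal axis, bins of 0.1), for the 14212 probe sets with a mean value of at least 4, with lines at the changes of the 3 members. *NINJA*, at -2.45, lies in the far lower tail with 1 of these probe sets beyond it, while *MYC4* (0.04) and *MYC3* (0.27) lie in the bulk of the distribution.

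Whether the members changed unequally was asked within each array, which removes any shift common to an array. The level of such a log2 ratio depends on the probes, so only its difference between genotypes is read. The ratio of *NINJA* to *MYC3* was -0.47, -0.47 and -0.48 in *ninja-1* replicates 1 to 3, against 2.29, 2.26 and 2.18 in WT replicates 1 to 3. It was lower in *ninja-1* by every pairing of arrays, with a difference of -2.72. The ratio of *NINJA* to *MYC4* was 0.83, 0.59 and 0.27 in *ninja-1* replicates 1 to 3, against 3.11, 2.87 and 3.20 in WT replicates 1 to 3, a difference of -2.49. Since the *NINJA* row was chosen by its fall, both of these ratios restate that choice and carry no test. The ratio of *MYC3* to *MYC4* was 1.305, 1.06 and 0.75 in *ninja-1* replicates 1 to 3, against 0.82, 0.60 and 1.02 in WT replicates 1 to 3. These overlapped, and their difference of 0.23 did not exceed the spread (exact permutation test, two-sided p = 0.4, where 3 arrays against 3 cannot go below 0.1).

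Within a genotype, *NINJA* and *MYC3* varied together from array to array. In *ninja-1*, *NINJA* deviated from its genotype mean by 0.14, -0.11 and -0.03 in replicates 1 to 3 and *MYC3* by 0.13, -0.11 and -0.02. In WT, *NINJA* deviated by -0.01, -0.09 and 0.11 and *MYC3* by -0.06, -0.11 and 0.17. Over the 6 arrays, Pearson's r of these deviations was 0.96, a description over few arrays that share their processing. Of 9806 probe sets with a mean of at least 4 and an SD of at least 0.1, 73 (0.744%) followed *NINJA* as closely in their deviations as *MYC3* did, and the median r was 0.20. *MYC4* did not share this pattern (r of -0.30 with *NINJA* and -0.23 with *MYC3*). The median deviation of all probe sets with a mean of at least 4 lay between -0.01 and 0.03 on these arrays. The values had already been normalized between arrays by GCRMA, which keeps such medians small. A part of array processing in the shared pattern of these 2 transcripts was not tested.

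**Figure D3:**
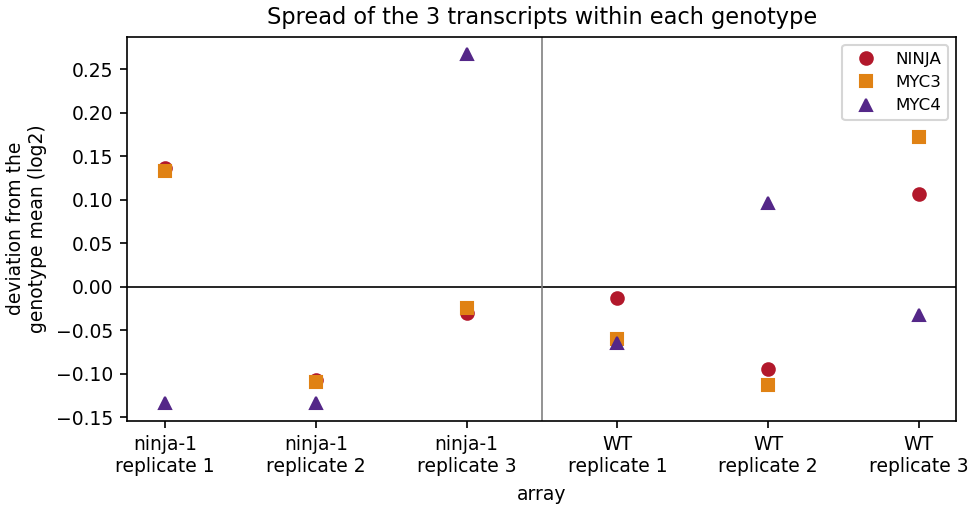
Deviation of *NINJA*, *MYC3* and *MYC4* from their genotype mean (log2, vertical axis) on each of the 6 arrays (horizontal axis, *ninja-1* left and WT right). *NINJA* and *MYC3* nearly coincide on the *ninja-1* arrays and lie on the same side of 0 on every array, whereas *MYC4* reaches 0.27 on *ninja-1* replicate 3.

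The transcripts most like *NINJA* over the 6 arrays were, by the fall they share, a set with smaller changes. The 5 named genes with the highest Pearson r, from 0.993 to 0.997, were AT1G51860, AT4G01140, *LEA4-5*, AT2G17350 and AT3G18250. *LEA4-5*, which encodes a late embryogenesis abundant protein of drought protection, fell by 1.37 (adjusted p = 0.00249 in limma), AT3G18250 by 0.72 (adjusted p = 0.0274) and AT1G51860 by 0.64 (adjusted p = 0.00836). AT4G01140 fell by 0.53 (adjusted p = 0.00759) and AT2G17350 by 0.24 (adjusted p = 0.00835). With r from -0.999 to -0.998, the 3 most opposite were AT1G06620, for a 2-oxoglutarate-dependent oxygenase, AT5G23840, for a lipid recognition protein, and AT1G22550, whose product is a major facilitator transporter. They rose by 2.23 (adjusted p = 0.00838), 3.67 (adjusted p = 0.00949) and 1.48 (adjusted p = 0.00466). These genes were picked for a pattern that separates the genotypes, so their changes and p describe that choice. Since genotype carries most of the variance of *NINJA*, an r near 1 or -1 here mainly says that a transcript separates the genotypes, and 2.14% of the 9806 probe sets reached an r of 0.95 or more.

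None of the nearest neighbours of *MYC3* and *MYC4* passed the adjusted p in limma. These genes were picked for their likeness to a member, so their differences describe that choice. For *MYC3* they were AT2G16230 and AT3G01350 (both r = 0.990), AT3G48410, AT1G63660 and AT5G03230 (r of 0.982, 0.979 and 0.978), with log2 differences from 0.14 to 0.94 and adjusted p from 0.257 to 0.493. AT5G03230, with means of 4.66 in *ninja-1* and 3.73 in WT, met the mean of at least 4 only through *ninja-1*. The most opposite to *MYC3* were AT5G53940, AT2G19180 and *VTC4*, an enzyme of ascorbate synthesis, with r from -0.977 to -0.972. For *MYC4* the nearest were AT1G67050, *SBPASE*, AT5G08650, AT4G31040 and AT5G09840, with r from 0.953 to 0.981. *MYC4* deviated by 0.27 on *ninja-1* replicate 3 and by -0.13 to 0.10 on the other arrays. Likeness to *MYC4* therefore rests largely on *ninja-1* replicate 3. *SBPASE*, an enzyme of the Calvin cycle, was also the nearest after the genotype means had been taken off (r = 0.997). Its log2 difference was 0.15 (adjusted p = 0.855 from limma). The most opposite to *MYC4* were *ARPN*, which encodes a plantacyanin, AT5G58800 and AT5G43520, with r from -0.992 to -0.981. After the genotype means had been taken off, *NINJA* was followed most closely by AT5G65180, AT5G44910 and AT1G73170 (r from 0.992 to 0.997). *MYC3* was then followed by AT5G18750, AT1G21780 and AT5G37690 (r from 0.993 to 1.000), and *MYC4*, beside *SBPASE*, by AT3G26935 and AT1G61890 (both r = 0.993).

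Of 76 other genes of the pathway placed in 11 lists (co-repressors, JAZ and other TIFY proteins, related bHLH factors, the receptor complex, Mediator subunits, regulators of MYC protein, DELLA proteins, MYB partners and other factors), the annotation names the probe sets of 6. None of the 6 passed the adjusted p in limma in either direction, against 0.374% of all probe sets lower and 0.805% higher, and none had an unadjusted p under 0.05, against 13.0% of all probe sets. A listed gene is called measured, here and below, where a probe set carries it as its single gene name. The other listed genes may lie among the probe sets with no name or several names. The lists without a measured member are those of NINJA relatives, co-repressors, TIFY proteins, the receptor complex, DELLA proteins, MYB partners and factors downstream of MYC2, which were not analysed here.

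The 3 measured regulators of MYC protein had small negative differences. *PUB10*, a ubiquitin ligase that targets MYC2, measured 7.38, 7.54 and 7.37 in *ninja-1*, against 7.58, 7.61 and 7.50 in WT, overlapping between the genotypes, with a log2 difference of -0.14 (95% interval from -0.30 to 0.03, adjusted p = 0.484 from limma). *BPM3*, an adaptor of CUL3 ligases that bind MYC proteins, measured 8.70, 8.64 and 8.70 in *ninja-1*, against 8.83, 8.73 and 8.74 in WT. Here all *ninja-1* arrays lay below all WT arrays, which 10.1% of the probe sets tested also show, with a log2 difference of -0.08 (adjusted p = 0.467 from limma). *FER*, a receptor kinase that phosphorylates and destabilises MYC2, differed by -0.10 (95% interval from -0.45 to 0.25, adjusted p = 0.885 from limma). *MED18*, a subunit of the Mediator complex through which transcription factors reach RNA polymerase, differed by 0.12 (adjusted p = 0.756), and *EIN3*, the ethylene factor that opposes MYC2, by 0.07 (adjusted p = 0.750). *bHLH014*, a repressor of JA responses related to the MYC factors, was at the floor of 2.11 on all 6 arrays.

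Wider families were added after the values had been seen, because so few pathway genes are named. Of 35 genes that the RefSeq table labels as bHLH proteins, 8 were measured beside *MYC3* and *MYC4*, none past the adjusted p and none with an unadjusted p under 0.05, and their median difference was -0.04 against 0.00 over all probe sets. *ATMYC1*, a bHLH factor of epidermal cell patterning that is outside the JA group, measured 7.42, 7.33 and 7.63 in *ninja-1*, against 7.27, 7.62 and 7.54 in WT, a difference of -0.02 (adjusted p = 1 from limma). *ILR3*, *bHLH104*, *bHLH115*, *bHLH34* and *bHLH121*, which act in iron homeostasis, differed by -0.10 to 0.05, and *BHLH101*, another factor of iron homeostasis, by -0.13 at mean values of 3.01 in *ninja-1* and 3.13 in WT. *MYC3*, at 0.27, was above all 8 of these relatives, a comparison of differences that was not tested. The study reports *bHLH025* as over-expressed in *ninja-1* roots. That gene is not among the bHLH genes measured here, so neither these counts nor the place of *MYC3* speak for the whole bHLH family. Of 9 Mediator genes so labelled, 4 were measured, none passed and none had an unadjusted p under 0.05. *MED19A* had the smallest p of them, with a difference of -0.24 (adjusted p = 0.417), and *MED9*, *MED6* and *MED31* differed by -0.10 to 0.12.

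**Figure D4:**
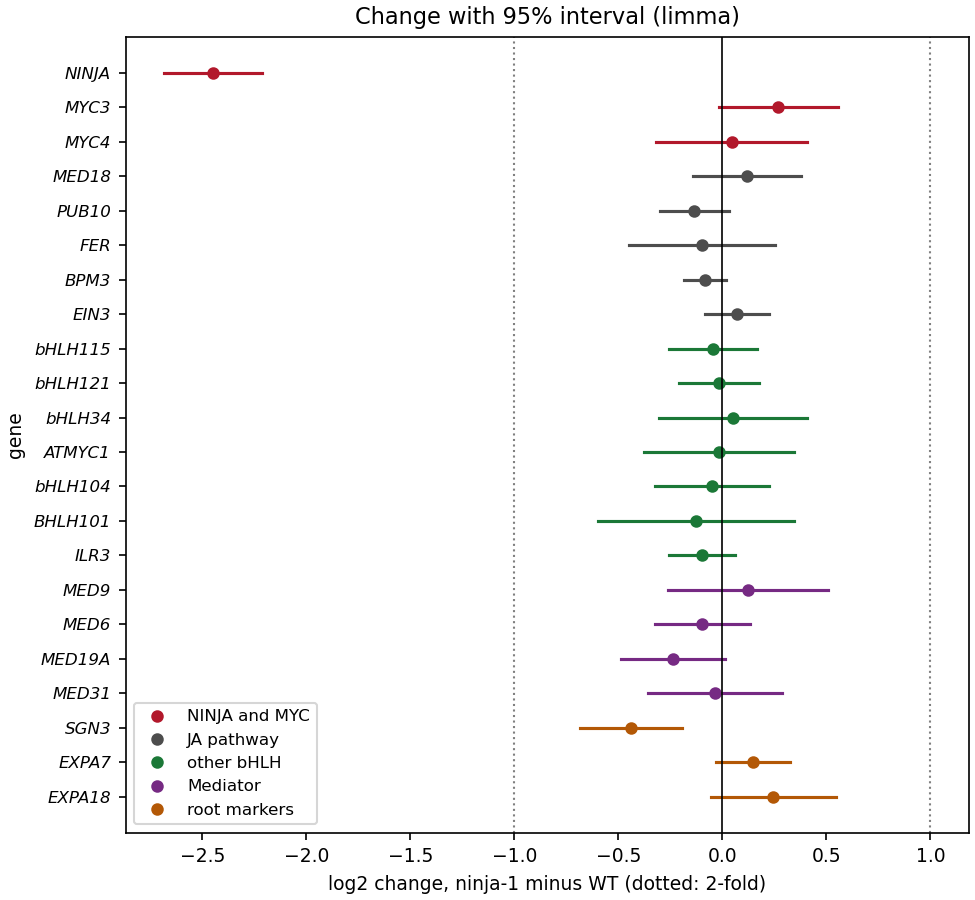
Log2 change, *ninja-1* minus WT, with its 95% interval from limma (horizontal axis) for the 3 members, the measured genes of the JA pathway lists, other bHLH genes, Mediator genes and root markers, with dotted lines at a 2-fold change. *NINJA* lies beyond the 2-fold line, and the interval of every other gene shown lies within the 2-fold lines. *bHLH014* and a further bHLH gene, AT1G22490, lay at the floor and are not drawn.

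The root identity of the samples can be checked on few named markers. Of 37 markers listed for root tissues and green shoot tissue, the annotation names the probe sets of 3, all of the root. The root hair expansins *EXPA7* (8.91 ± 0.08 in *ninja-1* and 8.76 ± 0.09 in WT, SD, n = 3 each) and *EXPA18* (9.96 ± 0.18 in *ninja-1* and 9.72 ± 0.09 in WT, SD, n = 3 each) were above the median of their arrays. *SGN3*, a receptor kinase of the endodermal barrier, was 8.20 ± 0.16 in *ninja-1* and 8.64 ± 0.04 in WT (SD, n = 3 each), with a log2 difference of -0.44 (adjusted p = 0.153 from limma) and its 3 *ninja-1* arrays all lay below the lowest WT array, a separation that 10.1% of the probe sets tested show. The log2 of the linear signal summed over the 3 markers ranged from 10.73 to 10.86 in *ninja-1* and from 10.68 to 10.75 in WT.

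Nuclear genes of photosynthesis had mostly positive and plastid genes mostly negative differences, and none passed the adjusted p. Of 45 nuclear genes with RefSeq symbols of photosystem, light-harvesting and Rubisco small subunits, 8 were measured, 0 passed in limma, and 5 were higher in *ninja-1* at an unadjusted p under 0.05, against 5.73% of all probe sets. The log2 of the linear signal summed over the 8 ranged from 10.57 to 10.72 in *ninja-1* and from 10.15 to 10.34 in WT. *PSAE-1*, a subunit of photosystem I, had a log2 difference of 0.61 (standard error 0.10, adjusted p = 0.0963 from limma), and *LHCB4.3* was next to the floor in both genotypes. Of 21 plastid genes of the photosystems and the Rubisco large subunit, 14 had a mean of at least 4, of which 12 had negative and 2 positive differences. At an unadjusted p under 0.05, 3 of the 21 were lower in *ninja-1*, against 7.23% of all probe sets, and 0 were higher (limma). The large subunit gene *rbcL* had a log2 difference of -0.64 (adjusted p = 0.312) and the photosystem I gene *psaI* one of -0.73 (adjusted p = 0.213). Both lists were added after the values had been seen. The part of these shifts in the values of *NINJA*, *MYC3* and *MYC4* was not tested.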

How the data were processed

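Total RNA of roots was labelled and hybridised to Affymetrix ATH1 arrays, 1 per biological replicate. The deposited values are log2 values that the authors made with GCRMA in R (version not given in the sources used here), and they were used without further normalization. After removal of 64 control probe sets, 22746 were tested without a filter. The genotypes were compared with limma 3.58.1 under R 4.3.3 (lmFit and eBayes with genotype as the only term, two-sided tests, Benjamini-Hochberg over all probe sets), the kind of model and the thresholds (0.05 and 2-fold) being those of the study's methods. Exact permutation tests used SciPy 1.17.1. The fit was checked on simulated data.

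Replicates are labelled as separate biological replicates. Their numbers are shared by both genotypes, but no source describes a pairing, so no block was used. Gene names come from the platform's annotation table, updated through RefSeq genes of TAIR10.1: 13513 probe sets have a single gene name, 503 several and 8730 none. A gene with several probe sets was shown by its brightest. No coordinates are given, since no build is named for the values.

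The genes named are the 3 members, the list members with the smallest p, and the 5 named genes most alike, the 3 most opposite and the 3 most alike in deviations, by Pearson's r among probe sets with a mean of at least 4 and an SD of at least 0.1. Members and lists were chosen with earlier results of these data known. The *NINJA* row was chosen through its change. The further genes of the bHLH, Mediator and photosynthesis families were named after their values were seen. Alternatives covered variance moderation, a filter on dim probe sets, scaling, array weights, a replicate block and leaving out each array.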

Additional observations from a re-analysis of the deposited data

How the results depend on the processing

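The *NINJA* row was chosen by its change, so its p in the alternatives describe that choice. Its change kept its direction and its side of the adjusted p in 12 of 13 alternatives. With a replicate block it was -2.45 with adjusted p = 0.0809 from limma, and the block left 0 probe sets called in either direction (182 higher and 66 lower at least 2-fold had an unadjusted p under 0.05). Correlations of the deviations of same-numbered arrays were 0.09, 0.05 and 0.15 over 15205 probe sets. Between arrays of different number they ran from -0.21 to 0.15. Whether same-numbered samples were handled together is not given in the sources used here and cannot be told from these correlations. With 1 array left out, the change of *NINJA* ranged from -2.52 to -2.40 (adjusted p from 0.0234 to 0.0363), that of *MYC3* from 0.20 to 0.36 and that of *MYC4* from -0.090 to 0.11, the lowest without *ninja-1* replicate 3. *MYC3* did not pass in any of 13 alternatives (adjusted p from 0.144 with median centring to 0.702 without WT replicate 2) and neither did *MYC4* (0.645 to 1). The 95% interval of *MYC3* left out 0 with the dim filter (0.03 to 0.51) and with median centring (0.10 to 0.51). It also left out 0 after a further quantile normalization (difference 0.28, unadjusted p = 0.0343 in limma). The same held without WT replicate 3 (0.36, unadjusted p = 0.0213 in limma). Median centring shifted the median of all changes by 0.03.

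The differences between members kept their direction in all 8 alternatives each, from -2.75 to -2.69 for *NINJA* minus *MYC3*, from -2.63 to -2.34 for *NINJA* minus *MYC4* and from 0.09 to 0.37 for *MYC3* minus *MYC4*. With the block, an exact sign-flip test over 3 pairs cannot go below p = 0.25, and gave 0.5 for *MYC3* minus *MYC4*. No measured pathway, bHLH or Mediator gene of the lists passed in any alternative. Of the 8 measured nuclear photosynthesis genes, 2 passed with the dim filter and 2 with median centring. The plastid genes were not counted in the alternatives.

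The background counts moved more. Called higher were 112 probe sets, but 170 with the dim filter and 170 with median centring. Called lower were 11, but 58 with the dim filter, 40 with median centring and 5 without moderation. With 1 array left out, 33 to 83 were called higher and 3 to 12 lower. The causes were not tested. With 3 arrays per genotype, the 95% intervals of *MYC3* and *MYC4* reached 1.47-fold and 1.33-fold.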
